A study of Saccharomyces cerevisiae with 7 samples.

Results

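The peaks described here are the 273 internal Rph1 peaks of the budding yeast genome that were at least 2000 bp and under 3200 bp wide, out of 731 peaks in the deposited table. Width was taken from the end and start of each peak, and the first and last peak of each chromosome were left out. The 273 peaks cover 684.754 kb, which was 31.7% of the sequence in all peaks, with a median width of 2449 bp and a range from 2000 to 3192 bp. The other peaks were 202 narrower internal peaks, 224 wider internal peaks and 32 peaks at the ends of the peak lists of the chromosomes. Width was set when the authors called peaks on this study's libraries, so it is not independent of the signal, and width itself was not tested.

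Rph1 is a yeast JmjC-domain histone demethylase that acts on methylated lysine 36 of histone H3 and also carries zinc fingers that bind DNA. It is known as a repressor, for example of the photolyase gene PHR1 and of autophagy genes, and phosphorylation relieves its repression. Ppm1 is the methyltransferase that methylates the catalytic subunit of the phosphatase PP2A, so cells without it have unmethylated PP2A.

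Rph1 binding was measured by chromatin immunoprecipitation and sequencing of an HA-tagged protein in 7 libraries. All cells were CEN.PK MATa and carried a tagged allele of RPH1 with a HYG marker. The wild-type group carried RPH1-HA-HYG and was sampled in log phase in YPL, a rich medium with lactate, in 2 libraries, and 1 h after transfer from YPL to SL, a minimal lactate medium, in another 2. A further 2 libraries came from RPH1-HA-HYG cells with the ppm1::kanMX deletion in YPL, and 1 library came from RPH1-S412A-HA-HYG cells in YPL, in which the S412A allele replaces a serine of Rph1 by alanine. The labels list different ingredients of SL for each of the SL libraries, and they do not say whether replicates were separate cultures, so p-values rest on the spread between these libraries, which may be technical. Libraries without the HA tag and input libraries were not analysed here, so a level at one peak relative to another cannot be told apart from differences in background, mappability or copy number.

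The deposited values were taken as reads per peak scaled to a common total of 22000000 reads. Every value was a whole multiple of a fixed step in its library, taken as the worth of 1 read, within 0.001 of a read. Whole multiples alone do not show the common total. With 22000000 assumed, the library totals ran from 13808893 to 34820208 reads. By these totals the 273 peaks held between 5.43% and 6.92% of a library's total. The weakest of them in the shallowest library still held 1537 reads, for a counting error of 2.55%. Counting error was therefore small beside the fitted spread between libraries, which had a median SD of 0.14 on the log2 scale. Levels are given below as signal per kb, the scaled reads divided by peak width, and changes as log2 differences between groups. A peak was called higher or lower where limma's adjusted p, over all 731 peaks, was under 0.05. In this fit the SD of each peak was a value shared by peaks of like signal, between 0.12 and 0.20 on the log2 scale, and not the peak's own spread, so p-values are too small where replicates lie far apart. Counts with each peak's own variance are therefore given beside each comparison.

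Most of the 273 peaks lay in a narrow band of signal. In the 2 wild-type YPL libraries the median level was 1977 and 2081 per kb, in the 2 SL libraries 2006 and 1732, in the 2 ppm1 deletion libraries 2097 and 1882, and in the S412A library 1686. The S412A median was below those of the other 6 libraries, and in both the SL and the ppm1 deletion pair library 2 was below both wild-type YPL libraries while library 1 was not. The spread of levels over peaks also differed: the 90th percentile was 2.16 times the 10th in wild-type YPL, 1.98 times in SL, 1.82 times in the ppm1 deletion and 1.56 times in S412A. If the 22000000 scaled reads were laid evenly over the 11.92 Mb that reach to the last peak of each chromosome, the density would be 1846 per kb. By that yardstick 47 peaks were below an even density in every library and 33 were above it in every library. The yardstick rests on the assumed total, places every scaled read within that span and is not a measured background.

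**Figure D1:**
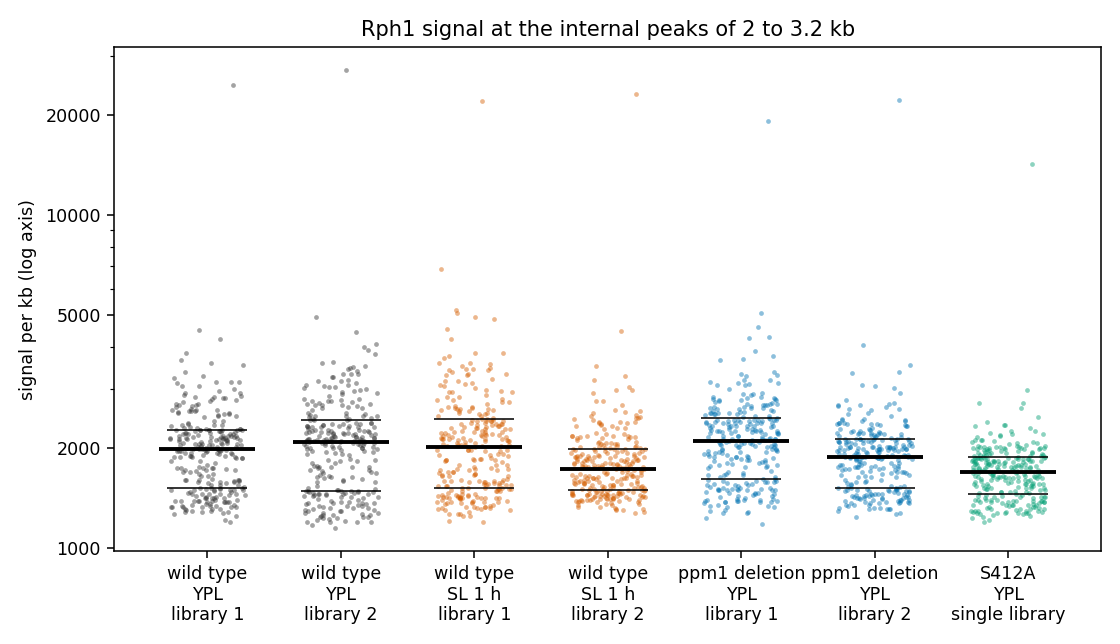
Signal per kb (log axis) of each of the 273 peaks in each of the 7 libraries, with 1 dot per peak, the median as a thick line and the quartiles as thin lines. The medians run from 1686 in S412A to 2097 in ppm1 deletion library 1, and 1 peak on chromosome XII stands above all others in every library.

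A single peak stood apart in level. chrXII:488758-490971, in sacCer2 coordinates, had 24537 and 27150 per kb in the wild-type YPL libraries, 21895 and 23023 in SL, 19149 and 22161 in the ppm1 deletion and 14199 in S412A. It was the highest of the 273 in every group, and the S412A library held its lowest value. The next highest by mean was chrVII:882015-884787, with 3132 and 3504 per kb in wild-type YPL, 6865 and 4494 in SL, 5077 and 4059 in the ppm1 deletion and 2990 in S412A. The lowest 5 by mean were chrXV:870618-873751, chrIX:16713-18764, chrXVI:733785-736020, chrVII:586918-589269 and chrXV:459263-461324. No gene is assigned to these or other peaks, because a gene annotation of sacCer2, the build in the submitters' processing notes, was not used here, and CEN.PK differs from the reference strain of that build.

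The first comparison asks where Rph1 signal differs 1 h after the move from rich to minimal lactate medium. Of the 273 peaks, 71 rose and 96 fell in SL, and 106 did not pass the test. Over all peaks tested 23.3% were called higher and 36.7% lower, so the shares among the 273, 26.0% higher and 35.2% lower, lay near that background. In either direction 167 of the 273 were called, or 61.2%, against 59.9% of all peaks. The median change over the 273 was -0.04, against -0.09 over all peaks, and the middle 50% of the 273 lay between -0.44 and 0.31. The libraries of the 2 groups did not overlap at 219 of the 273 peaks, or 80.2%, against 78.9% of all peaks. Without wild-type YPL library 1, 35 were higher and 61 lower, and without wild-type YPL library 2, 38 and 54. Without SL library 1, 47 were higher and 118 lower, and without SL library 2, 84 and 76. After quantile normalization 117 were higher and 110 lower, so which direction held more calls depended on the scaling. With each peak's own variance 21 were higher and 51 lower.

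The peaks that rose in SL most were low in YPL. chrVIII:279921-281951 had 1736 and 1745 per kb in wild-type YPL and 5165 and 3529 in SL. Both SL values were above every YPL value, and the SL libraries were themselves far apart. The log2 change was 1.29 with a standard error of 0.14, a 2.45-fold rise (limma adjusted p = 4.9e-19), and with the peak's own variance the adjusted p in the same linear model was 0.049. This peak had 1957 and 1764 per kb in the ppm1 deletion and 1686 in S412A, close to wild type in YPL.

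chrVIII:322379-325144 had 1419 and 1360 per kb in wild-type YPL and 3862 and 2918 in SL. Its log2 change was 1.27, and the SL libraries again stood clear of the others. chrXI:570907-573530 moved from 1251 and 1213 per kb to 3415 and 2456, a log2 change of 1.23. chrVII:999888-1003039 moved from 1573 and 1591 per kb to 4254 and 2988, a log2 change of 1.17. All of these were at wild-type YPL levels below the even density of 1846 per kb and above it in both SL libraries. The other 6 peaks among the 10 largest rises were chrX:322383-325213 (1.13), chrIV:805497-808291 (1.11), chrXIII:598860-601236 (1.07), chrVII:579740-581856 (0.96), chrIV:587405-589404 (0.86) and chrIV:343580-346247 (0.85), all log2 changes. At all 10, SL library 1 was above SL library 2, and both were above all 5 YPL libraries.

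The peaks that fell most were among the highest in YPL. chrXIV:499080-501544 had 4512 and 4939 per kb in wild-type YPL and 1770 and 1715 in SL. The SL libraries lay close together and far below the YPL libraries, and the log2 change was -1.44 with a standard error of 0.18 (limma adjusted p = 6.7e-14, and 0.047 with the peak's own variance). The same peak had 4290 and 3378 per kb in the ppm1 deletion and 2725 in S412A.

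chrXIII:296560-299369 had 4228 and 4449 per kb in wild-type YPL and 1642 and 1591 in SL, a log2 change of -1.42. chrX:73244-75460 had 3061 and 3261 per kb in wild-type YPL and 1327 and 1303 in SL, a log2 change of -1.26. chrVII:310318-312683 had 3366 and 3524 per kb in wild-type YPL and 1435 and 1441 in SL, a log2 change of -1.26. At these 4 peaks every SL value was below 1846 per kb, and the SL libraries differed from each other far less than at the peaks that rose. The other 6 of the 10 largest falls were chrIV:578835-581117 (-1.08), chrXVI:172658-175061 (-1.04), chrII:87616-89673 (-1.02), chrV:51273-53969 (-0.95), chrIV:1401558-1403868 (-0.92) and chrXVI:699723-702673 (-0.92), all log2 changes. Of the 10, chrXVI:699723-702673 kept the highest level in SL, at 2273 and 1934 per kb.

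**Figure D2:**
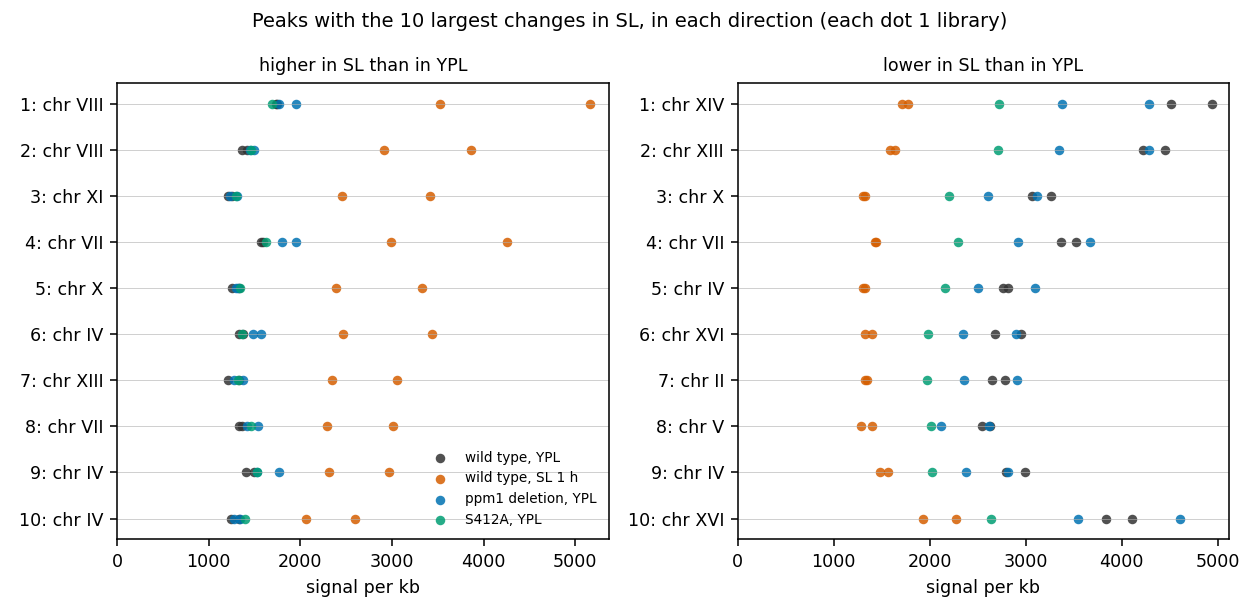
Signal per kb in each of the 7 libraries at the 10 peaks with the largest rise (left) and the 10 with the largest fall (right) in SL, with 1 dot per library and colours for the groups. On the left the SL dots lie to the right of all YPL dots, and on the right they lie to the left of all of them.

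As a group, the 71 peaks that rose had a median level of 1549 per kb in wild-type YPL and 2332 in SL, while the 96 that fell had 2317 in YPL and 1532 in SL. Since these levels come from the libraries that gave the calls, the peaks were also put into 4 classes by their level in the S412A library, which is not part of this contrast. In the lowest class of 69 peaks 32 rose and 1 fell, and in the next class of 68 peaks 26 rose and 12 fell. In the third class 5 of 68 rose and 41 fell, and in the highest class 8 of 68 rose and 42 fell. The median log2 changes of the 4 classes were 0.22, 0.14, -0.40 and -0.43. The single fall in the lowest class was chrXI:112600-114812. It had 2120 and 2130 per kb in wild-type YPL and 1296 in S412A, so its class reflects its S412A level and not a low wild-type level. The S412A library is also from YPL and ranked the peaks much as wild type in YPL did (Spearman's rho 0.90 to 0.91). Its classes therefore still sort the peaks by their YPL level. In the lowest class the median levels in wild-type YPL were 1385 and 1348 per kb. The lowest values of the 273 in SL were 1193 and 1274 per kb, and the smallest called change was 0.29 in log2 units. A called fall thus had little room in that class, and the counts of falls by class cannot be read apart from this limit. The peaks were called on this study's libraries, and how far that choice of peaks shapes this pattern was not tested.

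**Figure D3:**
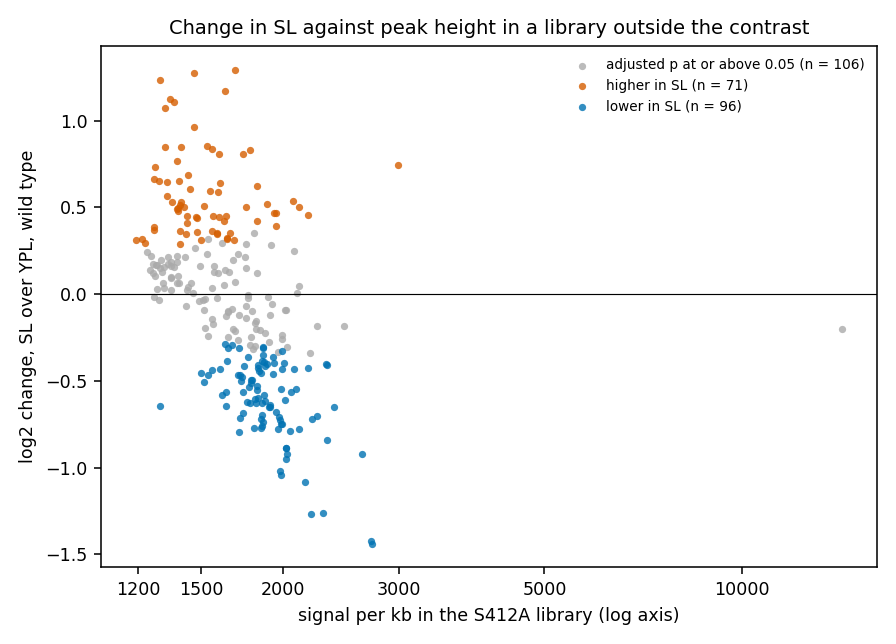
Log2 change in SL over YPL in wild type (vertical axis) against signal per kb in the S412A library (horizontal, log axis) for each of the 273 peaks, coloured by call. Rises lie mostly at low levels and falls at higher levels, with 71 peaks higher, 96 lower and 106 not passing the threshold.

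The order of the peaks by signal per kb in YPL was largely lost in SL. Across the 273 peaks Spearman's rho between a wild-type YPL and an SL library was 0.08 to 0.16, whereas it was 0.97 between the SL libraries, 0.93 between wild type and the ppm1 deletion, and 0.90 to 0.91 between wild type and S412A. Between wild-type YPL and SL libraries rho was 0.17 to 0.20 over the narrower internal peaks and 0.08 to 0.12 over the wider ones. The loss of order was thus not particular to the 273. These rho values are descriptions across peaks, which share the library's depth and background and are not independent replicates. How far the calling of peaks on this study's libraries shapes them was not tested. Of the 68 highest peaks in wild-type YPL, 24 were also among the 68 highest in SL, or 35.3% of each list. For the ppm1 deletion 52 of 68 were shared with wild-type YPL, or 76.5%. Each list of 68 holds 24.9% of the 273, the share that unrelated lists would have in common on average.

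The second comparison asks what loss of Ppm1 does to Rph1 signal in YPL. Of the 273 peaks, 0 were called higher and 2 fell by limma, or 0.733%, against 0% higher and 1.23% lower over all 731 peaks. At an unadjusted p under 0.05, 3 of the 273 were higher and 10 lower, against 4 and 41 of all 731. The median change was 0.02, and the groups did not overlap at 102 peaks, or 37.4%, against 35.4% of all peaks. With libraries centred on their medians 3 were higher and 5 lower, and after quantile normalization 7 were higher and 7 lower. With each peak's own variance in limma's linear model 0 were higher and 0 lower, and 5 and 5 at an unadjusted p under 0.05. The comparisons of SL, the ppm1 deletion and S412A with wild type in YPL all use the same 2 wild-type libraries, so the changes set side by side below are not independent.

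chrXI:112600-114812 had 2120 and 2130 per kb in wild-type YPL, 1181 and 1270 in the ppm1 deletion, 1319 and 1397 in SL and 1296 in S412A. The wild-type YPL libraries stood above the other 5, which lay close together. The log2 change in the ppm1 deletion was -0.80 with a standard error of 0.12 (limma adjusted p = 1.0e-07), in SL -0.65 (limma adjusted p = 1.2e-06) and in S412A -0.71 (limma adjusted p = 2.0e-04). The fall in the ppm1 deletion did not pass without ppm1 deletion library 1 (limma adjusted p = 0.073) or with the peak's own variance (adjusted p = 0.373).

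chrIV:975812-977992 had 2544 and 2807 per kb in wild-type YPL, 1881 and 1847 in the ppm1 deletion, 1906 and 1637 in SL and 1828 in S412A. The wild-type YPL libraries were again above the other 5. The log2 change in the ppm1 deletion was -0.52 with a standard error of 0.13 (limma adjusted p = 0.0093), and it did not pass when any 1 of the wild-type YPL or ppm1 deletion libraries was left out. In SL the log2 change was -0.60 and in S412A -0.55. These 2 peaks are the only ones of the 273 called lower in all 3 comparisons with wild type in YPL. None could be called higher in all 3, since 0 were called higher in the ppm1 deletion and 0 in S412A.

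The 5 peaks with the smallest p among those above wild type in the ppm1 deletion did not pass. They were chrIV:555197-557203 with a log2 difference of 0.33 (limma adjusted p = 0.482), chrVII:882015-884787 with 0.45 (limma adjusted p = 0.49), chrVIII:450668-453770 with 0.37, chrIV:507087-510020 with 0.31 and chrII:611998-614302 with 0.22. Below wild type, the next were chrXV:881651-884663 at -0.50 (limma adjusted p = 0.106), chrXVI:500992-503665 at -0.47, chrXV:579304-581968 at -0.36, chrXIII:872328-875078 at -0.34 and chrXII:488758-490971 at -0.33.

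The third comparison, of the S412A allele in its lone library with the wild-type YPL libraries, asks what this substitution does to Rph1 signal. Its test assumes that this library varies as the other groups do, and the allele cannot be told apart from traits of this library. Of the 273 peaks, 0 were called higher by limma and 36 fell, or 13.2%, against 1.92% higher, 17.5% lower and 19.4% in either direction over all peaks. At an unadjusted p under 0.05, 0 of the 273 were higher and 74 lower, against 16 and 241 of all 731. In all, 236 of the 273 and 635 of the 731 lay below the wild-type mean, and the median change was -0.22, against -0.25 over all peaks. The 731 include 32 first or last peaks of chromosomes, left out of the 273, with a median change of 0.35. Nearly all peaks called higher over the 731 were among these 32. Medians were -0.29 for the narrower and -0.28 for the wider internal peaks. The S412A value lay outside the wild-type pair at 243 peaks, or 89.0%, against 92.5% of all peaks. With the libraries centred on their own medians 9 peaks were higher and 28 lower, and after quantile normalization 18 were higher and 29 lower. Both scalings set the middle of each library equal and so place differences on both sides of 0 by construction. The count of 36 also rested on single libraries: without wild-type YPL library 1 it was 2, without wild-type YPL library 2 it was 0, without ppm1 deletion library 1 it was 2, without ppm1 deletion library 2 it was 0, and without either of the SL libraries it was 75. It was 151 with only the S412A and wild-type YPL libraries in the fit, and 0 with each peak's own variance in limma's linear model, where 34 were lower and 1 higher at an unadjusted p under 0.05.

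chrIV:145177-148345 showed the largest fall, with 3539 and 3935 per kb in wild-type YPL and 2014 in S412A. Its log2 change was -0.89 with a standard error of 0.23 (limma adjusted p = 0.003). The same peak had 2784 and 2139 per kb in SL and 3158 and 2611 in the ppm1 deletion, so S412A was the lowest of the 7 libraries. The chromosome XII peak with the highest signal fell by 0.86 on the log2 scale with a standard error of 0.17 (limma adjusted p = 7.2e-05).

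chrXIV:499080-501544, which had the largest fall in SL, had a log2 change of -0.79 in S412A (limma adjusted p = 0.0058), and its S412A level of 2725 per kb lay between the SL and the ppm1 deletion values. The other peaks among the 10 largest falls were chrV:441453-444123 (-0.75), chrXI:112600-114812 (-0.71), chrXIII:872328-875078 (-0.69), chrVII:976458-979617 (-0.69), chrX:646828-649998 (-0.69), chrXII:52287-55215 (-0.68) and chrXIII:296560-299369 (-0.67), all log2 changes. The 5 peaks with the smallest p among those above wild type did not pass, and the first of them, chrX:221064-223138, differed by 0.15 on the log2 scale (limma adjusted p = 0.51). The other 4 were chrVII:808230-811342 (0.13), chrVII:579740-581856 (0.11), chrVII:709345-711920 (0.11) and chrXV:459263-461324 (0.11).

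**Figure D4:**
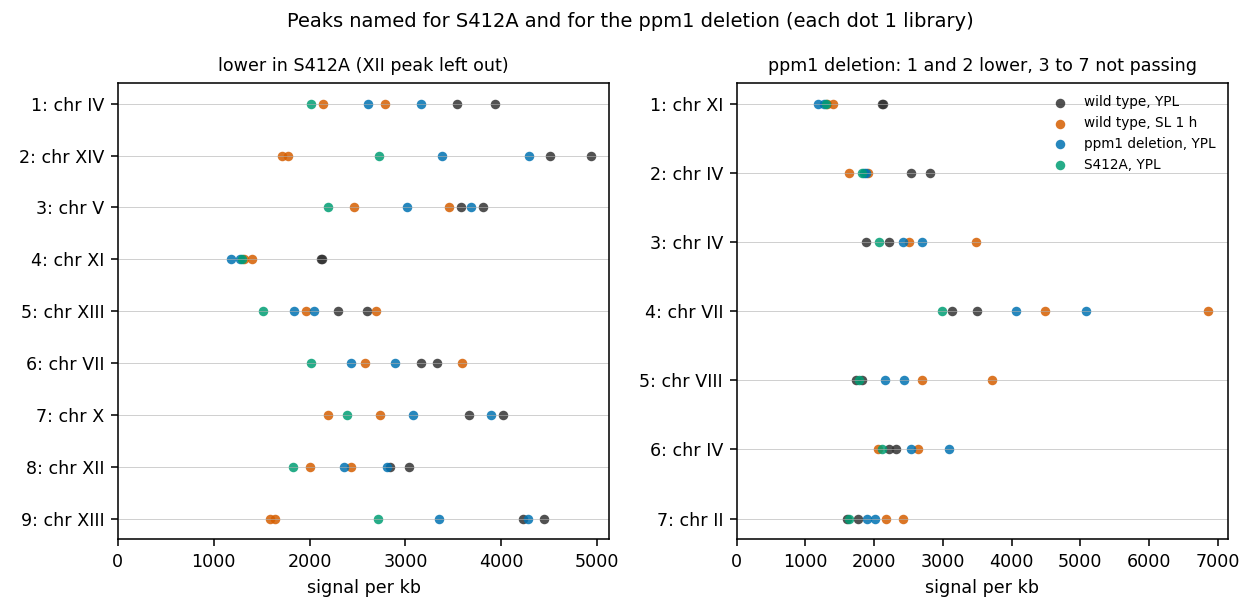
Signal per kb in each library, 1 dot per library, at 9 of the 10 peaks with the largest fall in S412A (left, the chromosome XII peak left out for its scale) and at the 2 peaks lower and the 5 nearest to higher in the ppm1 deletion (right). On the left the S412A dot lies below both wild-type YPL dots at each peak, and on the right only peaks 1 and 2 passed the test.

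Falls in S412A were more frequent at stronger peaks. With the 273 peaks in 4 classes by their mean level in the ppm1 deletion libraries, which are outside this contrast, 1 of 69 fell in the lowest class, 5 of 68 in the next, 7 of 68 in the third and 23 of 68 in the highest. The median log2 changes were -0.02, -0.15, -0.27 and -0.44. The ppm1 deletion libraries ranked the peaks much as wild type in YPL did (Spearman's rho 0.93), so these classes still sort them by YPL level. In the lowest class the wild-type YPL medians were 1384 and 1340 per kb. The lowest S412A value of the 273 was 1194 per kb, and the smallest called fall was 0.42 in log2 units. A called fall thus had little room at weak peaks. The trend over classes, here and in SL, is a description and was not tested. The S412A library also had the narrowest spread of levels over peaks, with a 90th percentile 1.56 times the 10th. With 1 library, an effect of the allele cannot be told apart from how that library was enriched.

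The last comparison sets the ppm1 deletion in YPL against wild type in SL. Of the 273 peaks 69 were higher in the ppm1 deletion and 55 lower, or 25.3% and 20.1%, against 25.4% higher and 21.3% lower over all peaks, with a median difference of 0.02. The libraries of these groups did not overlap at 185 of the 273, or 67.8%, against 66.6% of all peaks. The count of lower peaks was 30 without SL library 1, 82 without SL library 2, 36 without ppm1 deletion library 1 and 28 without ppm1 deletion library 2. It was 87 with libraries centred on their medians and 102 after quantile normalization. With each peak's own variance in limma's linear model 0 were higher and 0 lower, and 71 and 42 at an unadjusted p under 0.05. The largest differences were at peaks already named for SL, and both comparisons use the same SL libraries. chrXIII:296560-299369 was higher in the ppm1 deletion by 1.23 on the log2 scale, and chrVII:310318-312683 by 1.19. chrVIII:279921-281951 had a log2 difference of -1.20, and chrXI:570907-573530 and chrVIII:322379-325144 each had -1.19. Of the 10 largest differences in each direction, the ones not named for SL were chrXVI:784949-788129 (0.94), chrXIII:498856-501087 (0.89) and chrXI:306953-309890 (-0.89), all log2 differences.

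By width class, the 273 peaks had the lowest median signal per kb in all 7 libraries. In wild-type YPL the narrower internal peaks had medians of 2260 and 2367 per kb and the wider ones 2142 and 2269, against 1977 and 2081 for the 273. In SL the narrower peaks had 2154 and 1817 and the wider ones 2419 and 1937, against 2006 and 1732. In log2 units the 273 lay 0.10 closer to the narrower peaks in SL than in YPL and 0.10 farther from the wider peaks. Neither difference could pass 0.05, since with 2 libraries a group the smallest exact permutation p, two-sided, is 0.333, which both reached. The matching differences against the narrower and wider peaks were 0.00 and 0.06 in the ppm1 deletion (exact permutation p = 1 and 0.333) and 0.03 and 0.07 in S412A (exact permutation p = 0.333 for each). In SL 33 of the 202 narrower peaks rose and 106 fell, and 62 of the 224 wider peaks rose and 63 fell. In S412A 53 of the narrower and 33 of the wider peaks fell. Whether these shares differ from those of the 273 was not tested.

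**Figure D5:**
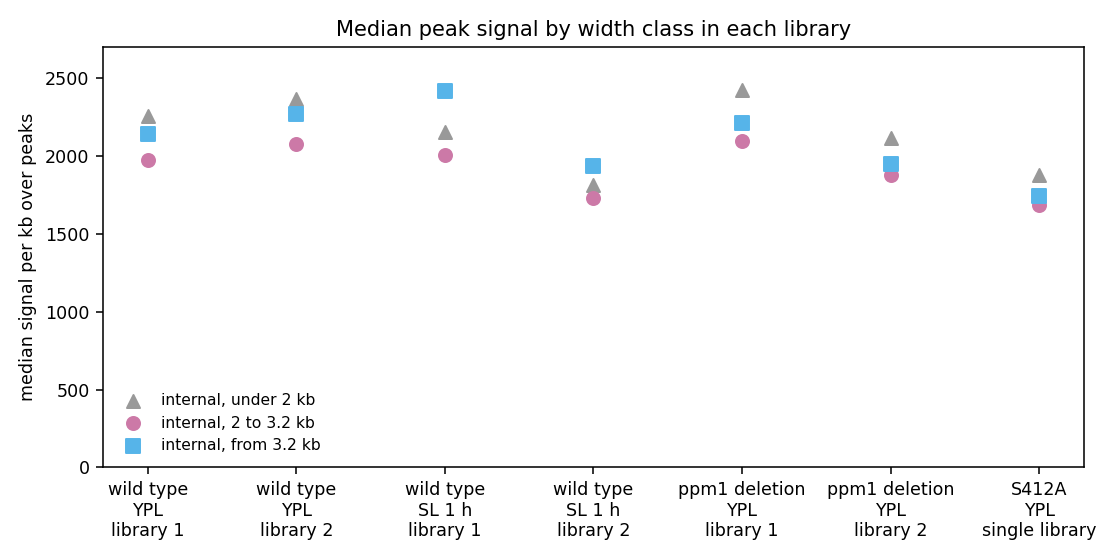
Median signal per kb of internal peaks in 3 width classes in each of the 7 libraries, with 1 point per class and library. The 2 to 3.2 kb peaks have the lowest median in every library, between 1686 and 2097 per kb.

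Within the 2000 to 3200 bp range, width went only weakly with level. Spearman's rho between width and signal per kb across the 273 peaks was between 0.07 and 0.25 in the 4 groups, each taken as the mean of its libraries. Between width and the log2 changes it was between -0.14 and 0.08. At the lower limit, chrIV:587405-589404 (2000 bp, inside) had means of 1450 per kb in wild-type YPL and 2645 in SL, and chrXII:805371-807364 (1994 bp, outside) had 2561 and 1369. At the upper limit, chrXV:504111-507302 (3192 bp, inside) had 2178 in wild-type YPL and 1512 in SL, and chrVIII:25306-28522 (3217 bp, outside) had 1205 and 3911.

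The 273 peaks lay on 15 of the 16 chromosomes, with 41 on chromosome IV, 27 on XII and none among the 12 peaks of chromosome I. Nearest peaks of any width were a median of 4781 bp away, and 43 of the 273 had one within 1000 bp. Among the 122 pairs of the 273 that were next to each other on a chromosome, both rose in SL in 5, both fell in 14, and 1 rose while the other fell in 26. The log2 differences had the same sign in 56 of the 122 pairs, called or not. Whether neighbours go together or apart more than the shares called among the 273 would give was not tested.

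chrV:51273-53969 starts 108 bp after chrV:48440-51164. The first of these had 2541 and 2633 per kb in wild-type YPL and 1284 and 1395 in SL, and fell by 0.95 on the log2 scale. The second had 1492 and 1435 per kb in wild-type YPL and 1445 and 1423 in SL, a log2 difference of -0.03 that did not pass. The higher of the pair in YPL was thus the lower in SL, in both SL libraries.

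Of the 9 neighbouring pairs within 1000 bp, 2 were called in opposite directions in SL, 1 had both called lower and 0 had both called higher. Among the 113 pairs farther apart, 24 were called in opposite directions, 13 had both lower and 5 both higher. The 2 near pairs called in opposite directions are described here. chrXVI:730789-732959 had 1969 and 1940 per kb in wild-type YPL and 1663 and 1526 in SL (log2 change -0.30, limma adjusted p = 0.034). chrXVI:733785-736020, 825 bp on, had 1199 and 1195 in wild-type YPL and 1508 and 1469 in SL (log2 change 0.31, limma adjusted p = 0.023). Each of the pair thus came closer to the other in SL. The other such pair was chrVII:609006-611780 with a log2 change of -0.41 (limma adjusted p = 0.018) and chrVII:612746-615003 with 0.32 (limma adjusted p = 0.020), 965 bp apart.

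Replicates differed most in SL. SL library 1 was above SL library 2 at 226 of the 273 peaks, with a median log2 difference of 0.21, and ppm1 deletion library 1 was above library 2 at 250, with a median of 0.16. The wild-type YPL libraries had a median difference of -0.05. The widest gap within a pair was 0.67 in log2 units, at chrXIII:773150-775961 in SL, where the libraries had 4851 and 3047 per kb. That peak was called higher in SL (log2 change 0.47, limma adjusted p = 0.020), and it is the 1 peak of the 167 called in this comparison whose groups overlap, since wild-type YPL library 2 had 3073 per kb.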

How the data were processed

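Reads had been aligned with Bowtie2 to sacCer2, per the submitters' processing notes. No version, peak caller, filter or use of input is given in these sources. The authors deposited 1 table of signal per peak for 7 libraries. From the values, this signal was taken as reads per peak scaled to 22000000 reads, a total that whole multiples alone do not show. Replicates were not pooled.

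Positions are as in the file. Signal was divided by width for levels. Changes were tested on log2 signal (pseudocount 0) by linear models in limma 3.58.1 (R 4.3.3; moderated variances with an intensity trend), with all 7 libraries and group as the only term, over all 731 peaks with Benjamini-Hochberg adjustment, and tested on simulated data. Medians per library were compared by exact permutation. Named peaks were the 10 largest changes in each direction among those passing with no overlap between groups, or the 5 smallest p where fewer than 5 passed, plus extremes of level, the width limits and those called in all comparisons with wild type. The neighbouring pairs and chrXIII:773150-775961 were chosen after their values were seen. Members and lists were chosen with earlier results of these data known. Alternatives were other scalings, filters and pseudocounts, 2 groups only, a replicate block, each peak's own variance and leaving out libraries. A count model was not run.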

Additional observations from a re-analysis of the deposited data

How the results depend on the processing

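With libraries centred on their medians, 3 of the 273 peaks were higher and 5 lower in the ppm1 deletion, 9 were higher in S412A with a median change of 0.022, and 87 were lower in the ppm1 deletion than in SL. Quantile normalization gave 117 higher in SL, 7 higher and 7 lower in the ppm1 deletion, 18 higher in S412A with a median change of 0.033, and 102 lower in the ppm1 deletion than in SL. Both scalings remove the median change of all peaks in S412A, which was -0.25 as deposited. With only the 2 groups compared in the fit, 4 peaks were lower in the ppm1 deletion and 151 in S412A. With both SL libraries left out, chosen after seeing the data, these counts were 4 and 71. Leaving out 1 library at a time gave 35 to 84 higher and 54 to 118 lower in SL, 0 to 1 higher and 0 to 4 lower in the ppm1 deletion, 0 to 75 lower in S412A, and 28 to 82 lower in the ppm1 deletion than in SL. The lowest SL counts came without wild-type YPL library 1 (35 higher, 61 lower) and library 2 (38 and 54). With the mean in place of the median, the 273 peaks moved against the narrower peaks by 0.163 in SL, 0.048 in the ppm1 deletion and 0.056 in S412A, and against the wider ones by 0.080 in S412A. With height classes set from the wild-type YPL libraries, 0 of the lowest class fell and 4 of the highest rose in SL, 0 of the lowest and 1 of the highest fell in the ppm1 deletion, and 0 of the lowest fell in S412A. The cause of these shifts was not tested. Library numbers did not mark a common pairing. Replicate differences, library 1 minus library 2, correlated over the 273 peaks at -0.41 between SL and wild-type YPL. They correlated at 0.10 between SL and the ppm1 deletion and at -0.46 between wild-type YPL and the ppm1 deletion. The differences were thus related between groups but with opposite signs for wild-type YPL, and a block by library number assumes the same difference in every group. With the replicate block 69 were higher and 91 lower in SL, 0 and 2 in the ppm1 deletion, and 67 and 53 in the ppm1 deletion against SL; the block could not be fitted for the single S412A library. With each peak's own variance, also chosen after seeing the data, 21 were higher and 51 lower in SL, and 0 passed in either direction in the other 3 comparisons. No named peak reversed. Of the 20 peaks named for SL, chrIV:587405-589404 and chrXVI:699723-702673 lost their call with their own variance (limma's linear model, adjusted p = 0.055 for each), and no other of these calls was lost in any alternative run. A count model on recovered reads was not run. Depth limits little here; the 1 to 2 libraries a group do.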
